A study of Mus musculus with 9 samples.

Results

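The 33 genes described here encode the glucose and lactate transporters, the enzymes of glycolysis, the enzymes that set its rate, the oxygen-sensing machinery and a group of genes that respond to low oxygen. They were chosen by name, from a list of gene symbols matched to the Ensembl identifiers of the deposited tables, with no threshold on a measured value. Earlier results of these data were known when the list was made. All 33 had a row among 20655 genes, and 32 had a mean normalised count of at least 10. The exception was Ankrd37, with a mean of 9.57.

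The libraries came from white fat of the inguinal and axillary depots of C57BL/6 wild-type mice, males and females mixed, at 12 days of age. Stromal cells were sorted by flow cytometry into 3 populations, DPP4+, ICAM1+ and CD142+ cells, and 3 libraries of messenger RNA were sequenced from each. The series addresses the order of mesenchymal progenitors in fat. The labels do not say how many mice went into a library, and the groups carry no transgene or treatment. The deposited tables hold 1 mean per gene, equal in all 3 tables and so taken to cover all 9 libraries, next to the authors' own fold changes and p-values between populations, which were not used here. The levels that follow are thus averages over the sorted populations, each with equal weight whatever its share of the tissue. They carry no error and no value per population, and no difference between populations is given.

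Glycolysis splits glucose into pyruvate in the cytosol, and lactate dehydrogenase regenerates the cofactor that keeps the pathway running when pyruvate is not passed to mitochondria. When oxygen falls, prolyl hydroxylases stop marking the alpha subunits of hypoxia-inducible factor (HIF) for breakdown, and the factor raises transcription of most glycolytic genes and of genes for pH control, blood vessel tone and mitochondrial turnover. In fat, hypoxia-inducible factors are known for their activity in expanding tissue, and glucose uptake feeds the glycerol backbone of stored fat.

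The hypoxia-inducible factor binds DNA at a short core, ACGTG, read on either strand. This core was searched in RefSeq promoter sequences of build GRCm38.p6, each reaching from 250 bases before to 50 bases after a start site. Such sequences were found for 30 members, 43 sequences in all. At least 1 match was present for 20 of the 30 members (66.7%). Among all 27025 genes with a promoter sequence the share was 21.8%, and among the 10180 of them with a mean of at least 10 it was 29.1%. A gene counted as matched if any of its sequences held the core, which favours genes with several sequences. Counted by sequence, 23 of the 43 from members (53.5%) held a match, against 19.6% of all 32851 sequences. Many of the listed genes are textbook targets of the factor, so a high share is partly built into the list. The core lies within CACGTG, the E-box bound by other factors, on both of its strands, and CACGTG was present for 5 members (16.7%) against 8.09% of all genes and 11.5% of those with a mean of at least 10. Bnip3l, Epas1 and Ndrg1 were not matched to a promoter sequence.

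The stretches below are shown because they hold matches near the start sites of genes at different points of the pathway: glucose entry, an enzyme that makes energy, the lactate-forming enzyme, lactate exit, the oxygen sensor and a mitophagy gene. Each is written 5′ to 3′ in the direction of transcription, with bases of a match in capitals and up to 25 bases on each side. They lie at chr4:119108684-119108738 for Slc2a1, chrX:106186925-106186998 for Pgk1, chr7:46845634-46845799 for Ldha, chr11:120949015-120949082 for Slc16a3, chr8:124949293-124949347 for Egln1 and chr7:138909584-138909639 for Bnip3. Egln1 and Bnip3 are on the minus strand and the others on the plus strand.
Slc2a1: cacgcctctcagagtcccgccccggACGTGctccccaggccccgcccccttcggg
Pgk1: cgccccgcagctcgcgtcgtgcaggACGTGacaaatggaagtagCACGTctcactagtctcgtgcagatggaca
Ldha: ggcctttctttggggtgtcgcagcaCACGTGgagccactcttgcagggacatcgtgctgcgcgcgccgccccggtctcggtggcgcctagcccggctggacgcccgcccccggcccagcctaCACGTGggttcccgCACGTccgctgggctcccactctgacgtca
Slc16a3: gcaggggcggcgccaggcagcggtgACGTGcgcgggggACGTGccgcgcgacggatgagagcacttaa
Egln1: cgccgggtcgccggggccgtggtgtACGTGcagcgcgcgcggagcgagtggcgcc
Bnip3: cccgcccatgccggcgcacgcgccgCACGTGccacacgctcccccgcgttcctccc

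Ldha carried 3 matches, starting 145, 48 and 34 bases before its start site, and both of the farther ones were E-boxes. Slc16a3 and Pgk1 carried 2 matches each, while Slc2a1, Egln1 and Bnip3 had 1. Over all members there were 32 distinct matches, and 10 members had 2 or more. No match lay in the promoter sequences of Adm, Eno1, Eno2, Gpi1, Ldhb, Pdk1, Pdk4, Pfkl, Pfkp and Tpi1, which says only that these letters are not in these windows. The median level was 103.5 per kilobase for the 20 members with a match and 59.6 for the 10 without, a description of 2 sets of genes and not a test.

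**Figure D1:**
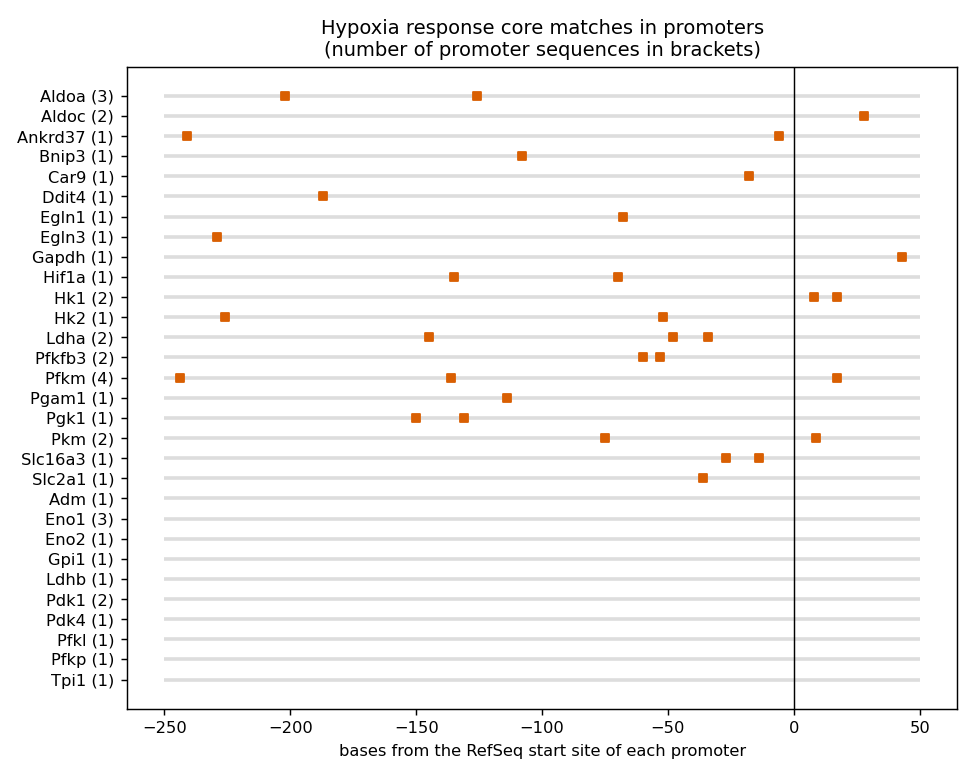
Matches to the core ACGTG on either strand (squares) in the RefSeq promoter sequences of 30 members, with the position from the start site on the x axis and the number of promoter sequences per gene in brackets. Matches appear for the upper 20 genes and for none of the lower 10. The pair of squares for Aldoa is the same site seen from overlapping promoters.

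To compare levels between genes, the authors' mean normalised count was divided by the length of the gene's exons, merged over all annotated transcripts, in kilobases. This quotient is the level given below. Genes were ranked among the 14143 genes with a mean of at least 10, whose median level was 32.6 per kilobase. A level above 212.8 put a gene in the highest 10%. Of the 33 members, 26 lay above the median and 7 below it, and the members spanned 167-fold from Aldoc to Aldoa. The 7 include Ankrd37, whose mean is below 10 and whose level was set against the ranked genes.

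The 17 glycolytic enzymes had a median level of 152.8 per kilobase by merged exons, the highest of the groups on this scale. Of these, 15 lay above the median of all genes and 7 in the highest 10%, namely Aldoa, Hk2, Ldha, Gapdh, Pkm, Pgk1 and Tpi1. No member outside the glycolytic enzymes reached the highest 10% on this scale, but this did not hold on others. By coding sequence Bnip3l (91.4th percentile) and Ndrg1 (91.1st) entered and Pgk1 (82.4th) and Tpi1 (88.4th) left. Without division by length Hif1a (90.5th), Epas1 (91.6th) and Ndrg1 (91.4th) were included. With no minimum mean Hif1a, Epas1, Bnip3l, Ndrg1 and Adm were included. Hk2, Aldoa, Gapdh and Ldha were there under every length and minimum tried. Even so, the 17 genes together held 0.175% of the counts assigned to genes. The collagen genes Col3a1, Col1a1 and Col1a2 alone held 17.6%.

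**Figure D2:**
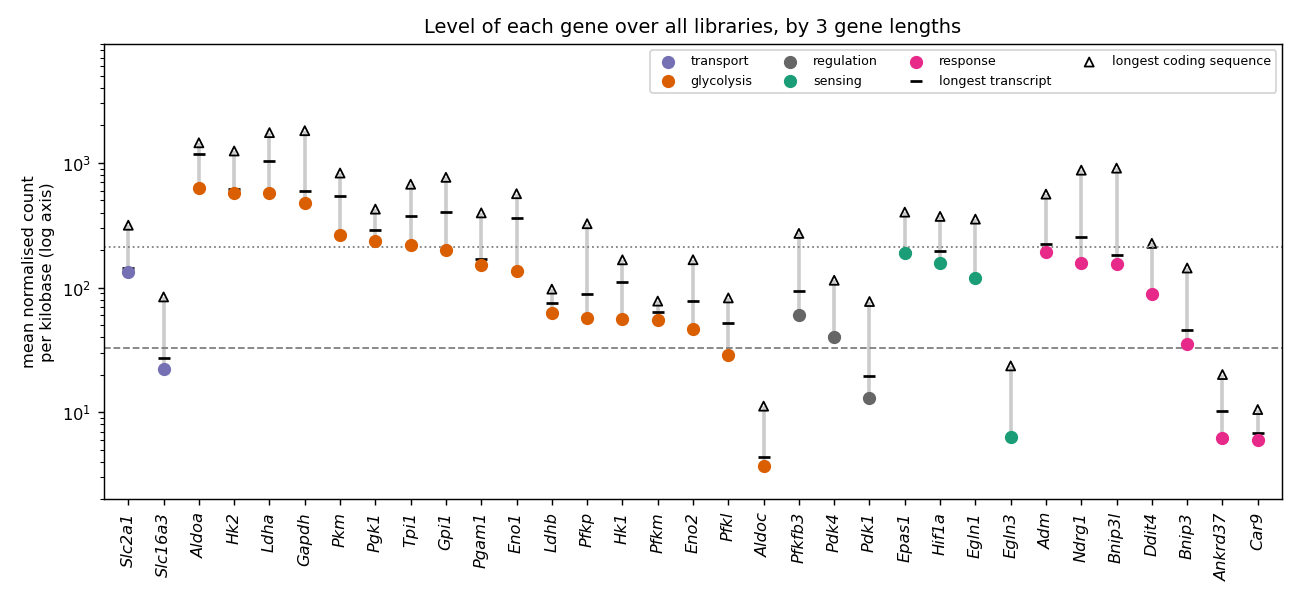
Level of each of the 33 genes (mean normalised count per kilobase, log axis), grouped by function and ordered within each group. Filled points use the merged exons, dashes the longest transcript and triangles the longest coding sequence. The dashed line is the median (32.6) and the dotted line the start of the highest 10% (212.8) of all ranked genes by merged exons. By merged exons Aldoa, Hk2, Ldha and Gapdh lead, and Aldoc, Car9, Ankrd37 and Egln3 lie lowest.

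Glucose enters through facilitative transporters. Slc2a1, which encodes the widespread transporter GLUT1, had a mean normalised count of 467 and a level of 133.3 per kilobase (84.3rd percentile). Slc16a3 encodes MCT4, the transporter that exports lactate from strongly glycolytic cells. Its mean was 119 and its level 22.3 per kilobase (39.6th percentile), 5.97-fold below Slc2a1. The fold was 3.76 by coding sequence and 3.94 without division by length.

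Hexokinase traps glucose in the cell by phosphorylation. Hk2, the insulin-responsive form, had the highest mean of all members, 3431 normalised counts, and a level of 574.8 per kilobase (96.3rd percentile). Hk2 (ENSMUSG00000000628.10) lies on chromosome 6 in mm10. The broadly expressed Hk1 had a mean of 474 and a level of 55.5 per kilobase, so that Hk2 stood 10.4-fold above it by merged exons and 5.62-fold by the longest transcript. Hk2 held 91.2% of the summed level of Hk1 and Hk2, and between 84.9% and 91.2% whichever length was used. Its mean was 1.76-fold that of Gapdh, a gene often used as an abundant reference. Per kilobase of merged exons the ratio was 1.22, and per kilobase of coding sequence it turned to 0.687. The transcript of Gapdh matched 72 other annotated genes at 95% identity or more, and that of Hk2 matched none. Reads that fit several of these genes may be missing from the count of Gapdh. The ratios of Hk2 to Gapdh are thus uncertain and may be too high.

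Glucose-6-phosphate isomerase, Gpi1, had a mean of 1284 and a level of 199 per kilobase. An antisense gene, Gm26762, overlaps 11.5% of its exon bases. Phosphofructokinase commits the sugar to glycolysis and is built from subunits of 3 genes. Pfkp, the platelet type, had a mean of 766, Pfkl, the liver type, 193 and Pfkm, the muscle type, 182.
By level, Pfkp (57.1 per kilobase) and Pfkm (54.6) lay close together and Pfkl (29.0) lowest. An annotated gene on the same strand, Gm26513, shares 10.2% of the exon bases of Pfkm. By coding sequence Pfkl was above Pfkm, at a log2 ratio of Pfkm to Pfkl of -0.08. The merged exons of Pfkp are 13401 bases long, and by coding sequence Pfkp held 67.0% of the subunit level against 40.6% by merged exons. Pfkfb3 makes the compound that activates phosphofructokinase, and its mean was 453 with a level of 59.9 per kilobase.

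Aldolase cleaves the sugar into a pair of triose phosphates. Aldoa had a mean of 1820 and a level of 625.1 per kilobase, the highest of the members by merged exons, while Gapdh (1814) was highest by coding sequence. Aldoc, the form typical of brain, had a mean of 12.2 and the lowest level, 3.74 per kilobase. Aldoa held 99.4% of the summed level of Aldoa and Aldoc. It was 167-fold above Aldoc by merged exons and 268-fold by the longest transcript. A second gene model that carries the name Aldoa in the annotation has no row in the tables.

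The later part of the pathway harvests energy from the trioses. Triosephosphate isomerase, Tpi1, had a level of 220 per kilobase and a mean of 606. Gapdh had a mean of 1954 and a level of 472.8 per kilobase (95.6th percentile). Its transcript matched 72 other annotated genes over at least 50% of its length at 95% identity or more, 69 of them pseudogenes. Of these copies 6 had a row, with a summed mean of 50.4. Reads that fit several copies are not assigned to one gene in a count of unique reads, so the value for Gapdh is uncertain. Far fewer copies were found for Eno1 (3 genes), Ldha and Pgk1 (2 each), and Gpi1, Ldhb, Pkm and Bnip3 (1 each). By this criterion the other 25 members had none. Few copies do not make a value certain. The copy of Bnip3, AC160336.1, covered 94.2% of its transcript, and Eno1b covered 85.6% of that of Eno1. Reads that fit these copies may be missing from the counts of Bnip3 and Eno1 as well. Pgk1, phosphoglycerate kinase, had a mean of 533 and a level of 237.7 per kilobase, and Pgam1, phosphoglycerate mutase, had 303 and 152.8.

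Enolase yields phosphoenolpyruvate. Eno1, the ubiquitous form, had a mean of 738 and a level of 137.1 per kilobase, and Eno2, known from neurons, 218 and 46.3. The level of Eno1 was 2.96-fold that of Eno2 by merged exons and 4.67-fold by the longest transcript. Reads that also fit copies of Eno1 may be missing from its count, so both ratios are uncertain. Pyruvate kinase, Pkm, had a mean of 1322 and a level of 264.4 per kilobase. An annotated gene on the same strand shares 15.3% of its exon bases, and its splice forms PKM1 and PKM2 cannot be told apart in a value per gene.

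Lactate dehydrogenase is a tetramer of A and B subunits, the A subunit favouring lactate formation. Ldha (ENSMUSG00000063229.15, chromosome 7, 46841475 to 46855627 in mm10), whose promoter stretch is printed above, had a mean of 1896 and a level of 572.8 per kilobase. Ldhb had a mean of 97.5 and a level of 62.1 per kilobase. The log2 ratio of Ldha to Ldhb was 3.21 by merged exons, 3.80 by the longest transcript and 4.17 by coding sequence, so that Ldha held at least 90.2% of the summed level on each scale.

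Summed over the members of each step, lactate dehydrogenase (634.9 per kilobase), hexokinase (630.3) and aldolase (628.9) were the highest by merged exons. Genes that are not members, such as Eno3, Slc2a3 and Slc2a4, were not added, so the glucose transporter step is Slc2a1 alone. Phosphofructokinase (140.7), next to the glucose transporter (133.3), was among the lowest. This order depends on the length used. By coding sequence, lactate dehydrogenase (1848) was followed by Gapdh (1814), aldolase (1462) and hexokinase (1414), and the glucose transporter (316.7) and phosphoglycerate mutase (397.6) were lowest.

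**Figure D3:**
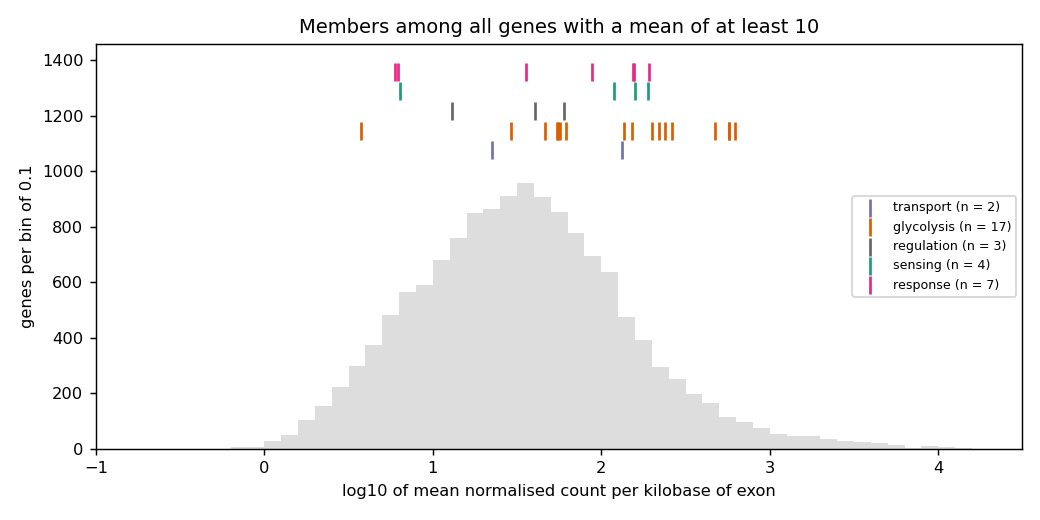
Distribution of the log10 level of the 14143 ranked genes (grey bars, genes per bin) with each member as a tick above, coloured by function. Ticks of glycolytic enzymes gather at the right of the distribution, and Aldoc is their lowest. Ticks of hypoxia response genes lie on both sides of its peak.

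Pyruvate dehydrogenase kinases block the entry of pyruvate into mitochondria. Pdk4, induced by fasting and fatty acids, had a mean of 142 and a level of 40.3 per kilobase, and Pdk1, a target of hypoxia-inducible factor, 101 and 12.9. Pdk4 was 3.12-fold above Pdk1 by merged exons, but 1.41-fold before division by length.

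The alpha subunits of hypoxia-inducible factor were both well represented. Hif1a had a mean of 934 and a level of 158.5 per kilobase (86.6th percentile), and Epas1, which encodes HIF-2 alpha and is prominent in endothelium, 1057 and 189.1 (88.9th percentile). Their ratio was 1.19 by merged exons and 0.969 by the longest transcript, so that no order between them held on every scale. Among the prolyl hydroxylases that sense oxygen, Egln1, the main form in most tissues, had a mean of 425 and a level of 118.3 per kilobase. Egln3, itself a target of the factor, had 16.9 and 6.34, and Egln1 stood 18.7-fold above it. Egln2, the remaining hydroxylase of the family and not among the 33 genes, had a mean of 406 and a level of 144.9 per kilobase (85.4th percentile), above that of Egln1 (82.3rd).

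The 7 response genes spanned a wide range, and 5 of them lay above the median of all genes. Adm, the vasodilator peptide adrenomedullin, had a mean of 310 and a level of 191.7 per kilobase. Ndrg1, a stress-induced protein, had 1035 and 156.9. Bnip3l, a receptor for the removal of mitochondria, had 594 and 154.0.
Ddit4, an inhibitor of growth signalling through mTORC1, lay lower at a mean of 156 and a level of 88.6 per kilobase. Bnip3, related to Bnip3l in structure and role, had 80.6 and 35.6, and Bnip3l was 4.33-fold above it by merged exons, 6.33-fold by coding sequence and 7.38-fold without division by length. The antisense gene Gm45507 overlaps 22.3% of the exonic sequence of Bnip3, and without a known strand setting reads of the pair cannot be told apart. Another annotated gene, AC160336.1, matched 94.2% of the transcript of Bnip3, and no copy of Bnip3l was found. Reads that fit both genes may be missing from the count of Bnip3. The folds of Bnip3l over Bnip3 are thus uncertain and may be too high.
Car9, a surface carbonic anhydrase that is a classical marker of hypoxic cells, had a mean of 13.8 and a level of 5.98 per kilobase (11.5th percentile). Ankrd37, another target of the factor, had 9.57 and 6.22, and antisense exons of Lrp2bp and Ufsp2 overlap 26.4% of its exonic sequence. Car9, Ankrd37 and Egln3 (12.3rd percentile) had levels close together, near the bottom of those of the ranked genes. Ankrd37 is itself not a ranked gene, since its mean is below 10. Each of these genes had at least 1 match to the core in its promoter sequence.

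**Figure D4:**
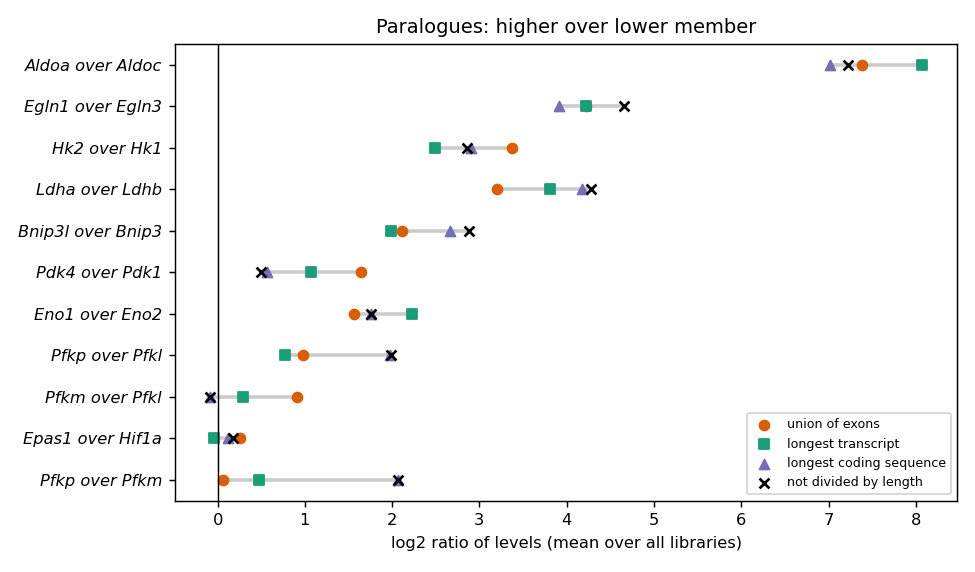
Log2 ratio of the higher to the lower member in 11 pairs of paralogues, on 4 scales of length. Most pairs stay to the right of 0. Pfkm over Pfkl falls to -0.08 by coding sequence or without division by length, and Epas1 over Hif1a to -0.05 by the longest transcript.

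Other genes of the pathway came from a fixed list, also made with earlier results of these data known. Of 20 further glycolysis genes 16 had a row and 11 a mean of at least 10, among which 2 lay above the median level and 1 in the highest 10%. The highest were Slc16a1, the lactate and pyruvate transporter MCT1 (230.1 per kilobase), Pfkfb4 (35.4) and Pdk2 (30.7). Slc2a4, the insulin-regulated transporter of fat cells, had a level of 5.81 per kilobase. Pgam2, the muscle form of phosphoglycerate mutase, had a mean of 8.93 and Ldhc, the testis form of lactate dehydrogenase, 1.27. A further list held 15 genes of the hypoxia response and of its regulation, among them Arnt and Egln2. Pfkfb2 was in both lists. All 15 had a row and 13 a mean of at least 10. Of those, 11 lay above the median and 4 in the highest 10%. The highest were P4ha1, a collagen prolyl hydroxylase (396.1 per kilobase), Vegfa, the main growth factor of blood vessels (383.5), and Angptl4, an inhibitor of lipoprotein lipase (348.1). The HIF partner Arnt had a level of 112.0, whereas Hif3a and Car12 had means of 8.79 and 9.16.

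The stromal label was checked against its markers. All 6 stromal markers were in the highest 10% of levels, from F3 (266.8 per kilobase) to Ly6a (2752). Of these, Dpp4, Icam1 and F3 (CD142) encode the antigens used for the sort, so their levels are no independent check. The remaining markers were Pdgfra (364.0 per kilobase), Cd34 (1009) and Ly6a. Among markers of fat cells, Adipoq had a level of 31.7 per kilobase (49.2nd percentile), near the median of ranked genes, Plin1 14.6 and Cidec 3.61. Among immune markers, Lyz2 had a level of 36.4 per kilobase, above the median, Cd3e 15.1 and Ptprc 1.11. The endothelial markers were all above the median, with Cdh5 at 181 per kilobase (88.4th percentile), Pecam1 at 96.9 (78.1st) and Kdr at 34.9 (51.9th). Hbb-bs and Hba-a1, of red blood cells, were also above it, at 136 per kilobase (84.5th percentile) and 96.5 (78.0th). The part of such cells in the levels of Epas1 or Adm was not tested. In sorted cells measured in bulk, fewer cells with a transcript and less of it per cell cannot be told apart.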

How the data were processed

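Polyadenylated RNA of 9 libraries was sequenced from both ends. Per the submitters' processing notes, STAR 2.5.2a, build mm10, DESeq2 and R 3.5.1 were used. For annotation and strand setting, the sources used here give nothing. Deposited by the authors were 3 tables of 20659 rows with the same mean column, a signal that averages counts divided by size factors over the libraries. The other columns hold the authors' fold changes between populations, standard errors, test statistics, p-values and adjusted p-values, and were not used. Depth per library is unknown. The means of the genes summed to 9024647. The 4 rows that name no gene held 59.6% of all counts (46.5% in no feature, 7.98% unmapped, 3.04% mapped to several places, 2.07% ambiguous) and were left out.

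Identifiers were matched without version to GENCODE M21 (GRCm38, the same assembly as mm10), which named 20618 genes. The version was the same for 27 members and differed for 6. Levels, ranks and promoter matches were computed in Python 3.11.15 with pandas 2.3.3, and copies were found with BLAST+ 2.17.0. Division by length and a search for the motif letters were run on simulated data. The answer was built into those data, so this checks the arithmetic only and not the results. No test between groups was made. The members and lists were chosen with earlier results of these data known. Every member is named; of each further pathway list the highest 3 are named, and Egln2, Slc2a4, Pgam2, Ldhc, Arnt, Hif3a and Car12 were chosen after their values were seen. Alternatives were other gene lengths, filters, totals, motif letters and windows.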

Additional observations from a re-analysis of the deposited data

How the results depend on the processing

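No paired analysis was possible because the deposited means carry no value per library; for the same reason no replicate could be left out and no population was compared. The median percentile of the members was 82.3 with a minimum mean of 10, 87.8 with no minimum, 69.6 with a minimum of 100, 79.5 without division by length, 76.8 with the longest transcript and 77.5 with the coding sequence. The members in the highest 10% numbered 7, but 14 with no minimum, 4 with a minimum of 100, 9 with the longest transcript, 9 without division by length, and 7, not all the same, with the coding sequence. The glycolytic share of 0.175% became 0.0709% with the rows that name no gene in the total, and 0.213% without the 3 most abundant genes. The median level of 118.3 per kilobase was 325.5 with the coding sequence. It was equal with the longest transcript because the median member, Egln1, has equal lengths. Over all members the level by longest transcript was a median of 1.25 times that by merged exons, and up to 2.65 (Eno1). For 22 of 33 members it left a Poisson interval around the mean read as a count, which ignores spread between libraries. The other 11 include Ankrd37, at 6.22 and 10.3 per kilobase. The higher member of a pair was the same for 10 of 11 pairs under each length, the exceptions being Epas1 over Hif1a by longest transcript (log2 ratio -0.046) and Pfkm over Pfkl by coding sequence or without division (-0.085 in both). Members with a promoter match numbered 27 (90%) with ACGTG or GCGTG, against 46.7% of all genes and 67.5% of those with a mean of at least 10, and 17 (56.7%) with only the bases before the start, against 18.5% and 25%. The coding length from RefSeq proteins was not run. Alternatives with coding sequences, the longest transcript for ranks, and undivided ratios were chosen after seeing the data.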
